A study of Mus musculus with 22 samples.

Results

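The glucocorticoid receptor gene Nr3c1, the enzyme gene Hsd11b1 and 8 genes known to be induced by glucocorticoids were followed while mouse C3H 10T1/2 cells were turned into adipocytes. The 8 genes were Fkbp5, Tsc22d3, Per1, Zbtb16, Sgk1, Dusp1, Mt1 and Mt2. The 10 are a list of names, and no measured value enters the rule that chose them. Earlier results of these data were known when they were chosen. They are 10 of the 30170 genes in the table, and all 10 were among the 14520 genes with enough counts to be tested. RNA was sequenced in 22 libraries from this multipotent mesenchymal line, in cells carrying DNMT3A WT, DNMT3A W330R or the double mutant W330R-R181E. WT and W330R had undifferentiated cells and days 2, 4 and 6 of differentiation, the double mutant had days 2, 4 and 6, and each of the 11 conditions had 2 libraries. Undifferentiated cells received no treatment. All other libraries came from cells that were induced in DMEM with 10% FBS, 0.5 mM isobutylmethylxanthine (which raises cAMP), 1 μM dexamethasone (a synthetic glucocorticoid), 5 μM troglitazone (a PPARγ agonist) and insulin at 5 μg/mL. After 2 days this medium was replaced by DMEM with 10% FBS and 5 μg/mL insulin, which was renewed every 2 days. No group received dexamethasone alone, so that the effects of the agents cannot be told apart, and the labels give neither how the DNMT3A forms were introduced nor whether cells of day 2 were taken before or after the change of medium.

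Glucocorticoids bind the receptor encoded by Nr3c1, which is held ready for ligand by heat shock protein chaperones, moves to the nucleus and binds DNA at glucocorticoid response elements. Some of its target genes act back on the pathway, as Fkbp5 does through a co-chaperone that lowers the receptor's affinity for its ligand. Hsd11b1 encodes the enzyme that regenerates active glucocorticoid from its inactive form in fat and liver, and dexamethasone is a standard part of media that drive mesenchymal cells toward adipocytes.

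The libraries held 8859501 to 47453908 counts on genes, and levels are given as CPM, counts per 1000000 counts of the library, after TMM normalization, a scale that compares libraries and not genes with each other. Fabp4, a fatty acid binding protein of adipocytes, was at 2.82–4.49 CPM in undifferentiated cells and at 1419–3037 CPM on day 2. Mean Fabp4 on days 2, 4 and 6 was 2016, 2609 and 3014 CPM in WT and 1625, 1100 and 667 CPM in W330R. In the double mutant it was 2792, 1419 and 1117 CPM. Adipoq, the adipocyte hormone adiponectin, went from 0–0.898 CPM in undifferentiated cells to 272–1296 CPM on day 6. Col1a1, a collagen of mesenchymal cells, was at 4027–7530.3 CPM before, 64.3–291 CPM on day 2, 403–1123 CPM on day 4 and 787–2409 CPM on day 6. The summed level of 10 adipocyte markers was 1563 to 2529 CPM in the 6 W330R libraries of days 2 to 6 and 2878 to 9807 CPM in the 6 WT libraries. The summed level of 10 mesenchymal markers was 20899 to 23769 CPM in undifferentiated cells and 2853 to 4810 CPM on day 2. It was higher again on day 4, at 7352 to 11459 CPM, and on day 6, at 10898.5 to 16696 CPM. The part of these shifts in the results, at any step, was not tested. In such bulk samples, fewer cells of a type and less RNA per cell cannot be told apart. Replicates of undifferentiated cells were far closer to each other (chi-square per degree of freedom 3.0 to 3.3 over genes) than those of days 2 to 6 (27.3 to 95.8), and their columns follow another naming pattern, so that a difference between the 2 sets of libraries and the step from undifferentiated cells to day 2 cannot be told apart. The labels name the double mutant R181E whereas its 6 columns say R181A. They do not say whether replicates are independent cultures or lines, so that p-values measure the spread between these libraries and genotype cannot be told apart from cell line. Dnmt3a itself was at 316–347 CPM in undifferentiated cells and over days 2 to 6 at 105–322 CPM in WT, 87.4–142 CPM in W330R and 68.5–148 CPM in the double mutant, a count that does not distinguish the forms. Ranges given by stage for genes outside the 10 members cover the 4 undifferentiated libraries and the 6 libraries of each later day, double mutant included.

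In the 4 induced libraries of WT and W330R on day 2, 7 of the 10 members rose against the 4 undifferentiated libraries, namely Fkbp5, Tsc22d3, Per1, Zbtb16, Sgk1, Mt1 and Mt2. Hsd11b1 fell, and Nr3c1 and Dusp1 did not pass the test. The call was an adjusted p under 0.05 in edgeR's quasi-likelihood test with Benjamini-Hochberg adjustment over 14520 genes, a threshold that 63.0% of all genes passed at this step, 33.5% as higher and 29.4% as lower. The median log2 fold change of the members was 2.28, beside 0.07 for all genes tested. From day 2 to day 4, averaged over the 3 genotypes, Per1 rose and Dusp1, Mt1 and Mt2 fell, where 39.1% of all genes were called, 20.6% higher and 18.5% lower. From day 4 to day 6, 5 members fell (Fkbp5, Tsc22d3, Per1, Zbtb16 and Sgk1) and Dusp1 rose, where 4.85% of all genes were called, 2.51% higher and 2.33% lower.

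**Figure D1:**
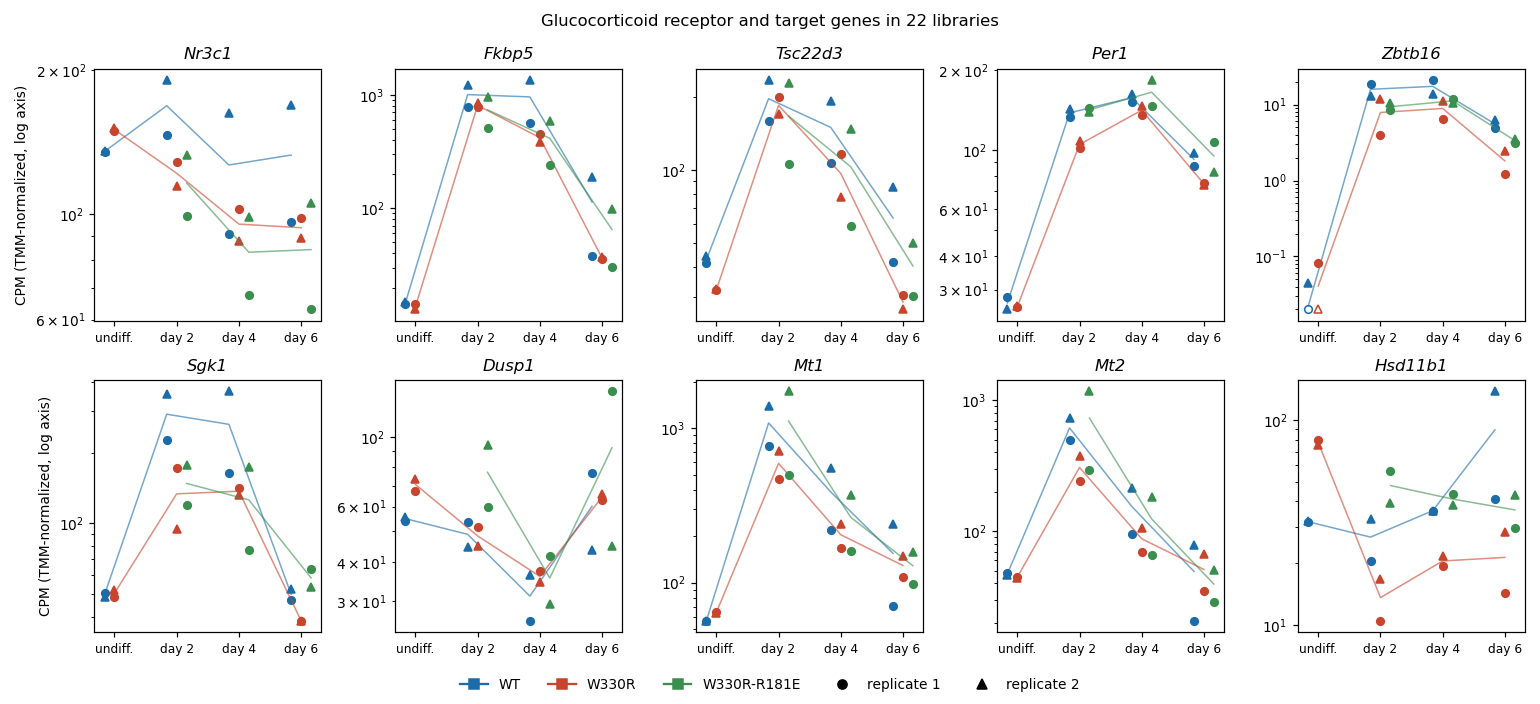
CPM of each member in the 22 libraries on a log axis by stage, with colours for the genotype, circles for replicate 1, triangles for replicate 2 and lines through the means of 2 libraries. Open symbols mark counts of 0, drawn at 0.02 CPM. Fkbp5 rises from 12.8 to 15.1 CPM before induction to 512 to 1226 CPM on day 2, while Nr3c1 stays within 63.0 to 191 CPM in all libraries.

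**Figure D2:**
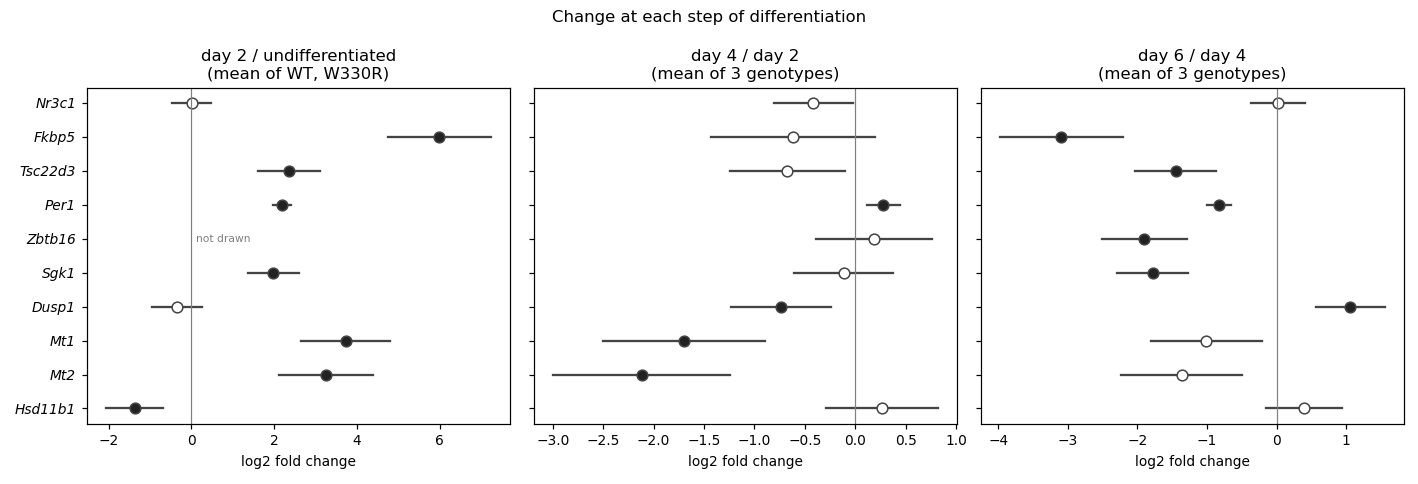
Log2 fold change of each member with its 95% confidence interval (line) at the steps to day 2 (mean of WT and W330R), day 4 and day 6 (mean of 3 genotypes). Filled points passed an adjusted p under 0.05, open points did not, and Zbtb16 is not drawn at the first step because undifferentiated cells had at most 1 count. Mt1 and Mt2 fall at the second step and Fkbp5, Tsc22d3, Zbtb16 and Sgk1 at the third.

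Nr3c1, which encodes the receptor itself, kept the same order of magnitude throughout. In WT it was at 135 and 136 CPM in undifferentiated cells, 146 and 191 on day 2, 90.7 and 163 on day 4 and 96.2 and 169 on day 6. In W330R it was at 149 and 151 CPM in undifferentiated cells, 129 and 115 on day 2, 103 and 87.8 on day 4 and 98.2 and 88.9 on day 6. In the double mutant it was at 99.1 and 133 CPM on day 2, 67.5 and 98.7 on day 4 and 63 and 105 on day 6. On day 2 both WT libraries lay above both undifferentiated WT libraries, whereas both W330R libraries lay below their undifferentiated counterparts. The averaged change to day 2 was close to 0 with an interval of -0.47 to 0.48 (log2 fold change 0.01 ± 0.22, SE, edgeR adjusted p = 0.988), and the difference between the genotypes in this step did not pass the test (log2 fold change -0.62 ± 0.44, SE, edgeR adjusted p = 0.587). From day 2 to day 4 the receptor was lower by a margin that did not pass the test (log2 fold change -0.42 ± 0.18, SE, edgeR adjusted p = 0.0844), and this value passed without the low-count filter, with a replicate block and when replicate 2 of WT on day 4 was left out (log2 fold change -0.59). On every day from 2 to 6, replicate 2 lay above replicate 1 in WT and in the double mutant and below it in W330R.

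Hsd11b1, the enzyme that makes active glucocorticoid inside the cell, was measured in every library. In WT it was at 31.7 and 32 CPM in undifferentiated cells, 20.6 and 33 on day 2, 36.1 and 36 on day 4 and 41.2 and 138 on day 6. In W330R it was at 79.5 and 75.5 CPM in undifferentiated cells, 10.5 and 16.7 on day 2, 19.4 and 21.6 on day 4 and 14.2 and 28.5 on day 6. In the double mutant it was at 56.5 and 39.2 CPM on day 2, 43.6 and 38.6 on day 4 and 29.7 and 43.1 on day 6. Undifferentiated W330R libraries were the highest apart from replicate 2 of WT on day 6, and W330R libraries of days 2 to 6 ranged from 10.5 to 28.5 CPM, below all 6 double mutant libraries. Within W330R the gene fell on day 2 (log2 fold change -2.51 ± 0.47, SE, edgeR adjusted p = 0.000619), where 48.2% of all genes were called. Within WT it did not pass the test (log2 fold change -0.24 ± 0.45, SE, edgeR adjusted p = 0.676), and the sign of that value turned without replicate 1 of day 2 (0.0595). The fall in the mean of both genotypes (log2 fold change -1.38 ± 0.32, SE, edgeR adjusted p = 0.00192) thus came with overlapping groups. The difference between the steps of W330R and WT missed the threshold (log2 fold change -2.26 ± 0.64, SE, edgeR adjusted p = 0.095) and passed it with DESeq2 (adjusted p = 0.0146), without the low-count filter (0.0251), in a fit of only the conditions compared (0.0368) and with the replicate number as a block (0.0462). The gene lies at chr1:193221634-193264075 on the minus strand (GRCm38, GENCODE). There its span overlaps 3 genes, Lamb3 and 4930570N18Rik on the other strand and Gm38118 on the same strand. None of its 4188 transcript stretches of 50 bases was found in a transcript of another gene. Lamb3, a laminin subunit looked at because of this overlap, was at about 12 CPM in both libraries of undifferentiated WT, at 20.7 and 21.3 CPM in undifferentiated W330R, and over days 2 to 6 at 1.57 to 9.04 CPM in WT, 1.34 to 3.63 CPM in W330R and 2.82 to 11.4 CPM in the double mutant.

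Fkbp5 and Tsc22d3 encode proteins that limit glucocorticoid signalling or carry out its anti-inflammatory action. Fkbp5 in WT was at 14.4 and 15.1 CPM in undifferentiated cells, 778 and 1226 on day 2, 566 and 1346 on day 4 and 38.3 and 189 on day 6. Fkbp5 in W330R was at 14.4 and 12.8 CPM in undifferentiated cells, 773 and 838 on day 2, 451 and 386 on day 4 and 35.6 and 37.2 on day 6. In the double mutant Fkbp5 was at 512 and 959 CPM on day 2, 238 and 588 on day 4 and 30.6 and 99.4 on day 6. The gene was thus low in undifferentiated cells, high on days 2 and 4 and between these levels on day 6, with no overlap between undifferentiated libraries and those of any later day. It rose on day 2 in the mean of WT and W330R (log2 fold change 5.99 ± 0.58, SE, edgeR adjusted p = 7.45e-07), and within WT (log2 fold change 6.09 ± 0.82) and within W330R (5.88 ± 0.82). The change to day 4 did not pass the test (log2 fold change -0.61 ± 0.38, SE, edgeR adjusted p = 0.217) and had an interval of -1.43 to 0.20. From day 4 to day 6 Fkbp5 fell (log2 fold change -3.09 ± 0.41, SE, edgeR adjusted p = 0.00112), with every day 6 library below every day 4 library. On day 6 it was still above undifferentiated cells (log2 fold change 2.18 ± 0.50, SE, edgeR adjusted p = 0.00182), a comparison in which 59.9% of all genes were called.

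Tsc22d3, which encodes the glucocorticoid-induced leucine zipper GILZ, was also high on days 2 and 4, over a smaller range. Unlike Fkbp5, in W330R both its libraries of day 6 lay below both undifferentiated ones. In WT, Tsc22d3 was at 41.3 and 44.2 CPM in undifferentiated cells, 158 and 234 on day 2, 107 and 193 on day 4 and 41.7 and 85.3 on day 6. W330R had Tsc22d3 at 32 and 32.3 CPM in undifferentiated cells, 199 and 169 on day 2, 116 and 77.7 on day 4 and 30.6 and 26.7 on day 6. The double mutant had Tsc22d3 at 105 and 228 CPM on day 2, 59 and 147 on day 4 and 30.4 and 50.2 on day 6. All 6 libraries of day 2 lay above all undifferentiated libraries, and the libraries of day 6 overlapped them. The gene rose on day 2 (log2 fold change 2.36 ± 0.35, SE, edgeR adjusted p = 3.93e-05), did not pass the test from day 2 to day 4 (log2 fold change -0.67 ± 0.27, SE, edgeR adjusted p = 0.0605) and fell from day 4 to day 6 (log2 fold change -1.45 ± 0.27, SE, edgeR adjusted p = 0.00896). The step to day 4 passed with DESeq2, without the low-count filter and with a replicate block (smallest adjusted p = 0.0202), and when replicate 2 of WT on day 4, replicate 1 of the double mutant on day 2 or replicate 2 of the double mutant on day 4 was left out (-0.82 to -0.93). On day 6 it did not differ from undifferentiated cells beyond its error (log2 fold change 0.20 ± 0.33, SE, edgeR adjusted p = 0.621), and the sign of that value turned without replicate 2 of WT on day 6 (-0.10).

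Promoters are shown for 5 members whose 250 bases before a start of transcription held a match to a motif of glucocorticoid, cAMP, metal or clock regulation that bears on the gene's known role. They come from RefSeq (GRCm38.p6), which gave 16 windows for 8 of the 10 members, and Nr3c1 and Zbtb16 were without an entry. The motifs were searched on both strands in 32851 windows of the same length. A full glucocorticoid response element, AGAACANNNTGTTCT, stood in 3 of these windows (0.00913%), and 1 of the 3 belongs to a start site of Sgk1, a serum- and glucocorticoid-regulated kinase that acts on ion channels and FOXO factors. No other window of Sgk1, which had 6, or of the other members held this element. The Sgk1 window (chr10:21993640-21993889, plus strand) is given with that element in capitals, at 189 to 175 bases before the start.
Sgk1: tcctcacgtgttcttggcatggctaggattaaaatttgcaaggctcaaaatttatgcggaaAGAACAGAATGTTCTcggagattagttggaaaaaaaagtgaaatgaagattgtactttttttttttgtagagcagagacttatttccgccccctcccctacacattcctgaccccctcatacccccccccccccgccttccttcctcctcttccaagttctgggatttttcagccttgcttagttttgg
The E-box CACGTG, to which clock factors bind, stood in 6.02% of windows, among them that of Per1 (chr11:69098699-69098948, plus strand), given with the E-box in capitals. Windows of Fkbp5, Sgk1 and Dusp1 held an E-box too, left in lower case in the Sgk1 and Dusp1 sequences.
Per1: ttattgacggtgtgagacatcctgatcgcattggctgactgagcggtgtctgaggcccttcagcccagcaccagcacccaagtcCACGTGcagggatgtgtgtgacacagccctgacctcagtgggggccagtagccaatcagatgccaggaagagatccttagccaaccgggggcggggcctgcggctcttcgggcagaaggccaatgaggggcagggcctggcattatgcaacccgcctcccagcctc
A match describes these letters and does not show that a factor binds there.

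Of the 3 consecutive steps, Sgk1 passed the test at the same steps as Fkbp5, Tsc22d3 and Zbtb16, upward to day 2 and downward to day 6. Its WT levels were 50.5 and 48.6 CPM in undifferentiated cells, 227 and 356 on day 2, 163 and 365 on day 4 and 46.9 and 52.6 on day 6. Its W330R levels were 48.5 and 52 CPM in undifferentiated cells, 172 and 94.2 on day 2, 141 and 132 on day 4 and 38.4 and 38.4 on day 6. Its levels in the double mutant were 119 and 176 CPM on day 2, 77.1 and 174 on day 4 and 63.5 and 53.4 on day 6. Libraries of day 2 ranged from 94.2 to 356 CPM and did not overlap the undifferentiated ones at 48.5 to 52.0 CPM, which in turn overlapped those of day 6. The gene rose on day 2 (log2 fold change 1.98 ± 0.29, SE, edgeR adjusted p = 4.07e-05), did not pass the test from day 2 to day 4 (log2 fold change -0.11 ± 0.23, SE, edgeR adjusted p = 0.735) and fell by day 6 (log2 fold change -1.78 ± 0.24, SE, edgeR adjusted p = 0.00112). Within W330R alone the rise passed (log2 fold change 1.41 ± 0.41, SE, edgeR adjusted p = 0.0112) but not without replicate 1 of day 2 (0.91, adjusted p = 0.127), nor without replicate 1 (adjusted p = 0.0695) or 2 (0.0538) of undifferentiated W330R. The sign of the change to day 4 turned when replicate 1 of WT on day 4, of W330R on day 2 or of the double mutant on day 4 was left out (0.0525 to 0.0537).

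Zbtb16 encodes a zinc finger transcription factor (PLZF) that glucocorticoids induce in many cell types. Undifferentiated cells gave 0 and 1 counts in WT and 1 and 0 counts in W330R, so that the rise is given as a ratio of counts per depth. In WT the 515 counts of day 2 against 1 gave a ratio of 519 with a counting interval of 92.7 to 20528. In W330R the 384 counts of day 2 against 1 gave a ratio of 178 with an interval of 31.8 to 7063. The gene was thus close to silent before induction in all 4 libraries and was counted in every library afterwards, and these intervals cover counting error only. WT levels of Zbtb16 were 18.7 and 13.2 CPM on day 2, 21.1 and 13.7 on day 4 and 4.88 and 6.27 on day 6. W330R levels were 3.96 and 11.8 CPM on day 2, 6.55 and 11.3 on day 4 and 1.21 and 2.42 on day 6. Double mutant levels were 8.37 and 10.4 CPM on day 2, 12 and 10.4 on day 4 and 3.16 and 3.57 on day 6. Days 2 and 4 overlapped (log2 fold change 0.19 ± 0.27, SE, edgeR adjusted p = 0.624), with a sign that turned without replicate 1 of W330R on day 2 (-0.00754). From day 4 to day 6 the gene fell (log2 fold change -1.90 ± 0.28, SE, edgeR adjusted p = 0.00223).

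Per1, a core repressor of the circadian clock that also responds directly to glucocorticoids and cAMP, peaked on day 4. WT cells had Per1 at 28.2 and 25.2 CPM in undifferentiated cells, 133 and 143 on day 2, 152 and 163 on day 4 and 87 and 97.7 on day 6. W330R cells had Per1 at 25.7 and 26 CPM in undifferentiated cells, 102 and 108 on day 2, 136 and 147 on day 4 and 75.4 and 74 on day 6. Double mutant cells had Per1 at 144 and 139 CPM on day 2, 147 and 183 on day 4 and 107 and 82.8 on day 6. Replicates were close to each other, and every library of days 2 to 6 lay above every undifferentiated library. Per1 rose to day 2 (log2 fold change 2.20 ± 0.10, SE, edgeR adjusted p = 8.6e-10), rose again to day 4 (log2 fold change 0.28 ± 0.08, SE, edgeR adjusted p = 0.0111) and fell to day 6 (log2 fold change -0.83 ± 0.08, SE, edgeR adjusted p = 0.000159). The rise to day 4 missed the threshold when the low-count filter was removed (adjusted p = 0.0552). On day 6 Per1 remained above undifferentiated cells (log2 fold change 1.66 ± 0.10, SE, edgeR adjusted p = 2.23e-08).

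Mt1 and Mt2 encode metallothioneins, small cysteine-rich proteins that bind zinc and copper and whose genes respond to metals and to glucocorticoids. They are neighbours on chromosome 8, at chr8:94172664-94173568 and chr8:94179082-94180327 on the plus strand. The core of the metal response element was searched as TGCACNC, found in 10.4% of windows, and TGCGCNC, found in 12.5%. The window of Mt2 (chr8:94172368-94172617) held 3 such cores and that of Mt1 (chr8:94178839-94179088) held 1, counting both strands and given in capitals. Windows of Hsd11b1 and of another start site of Per1 held 1 core each.
Mt2: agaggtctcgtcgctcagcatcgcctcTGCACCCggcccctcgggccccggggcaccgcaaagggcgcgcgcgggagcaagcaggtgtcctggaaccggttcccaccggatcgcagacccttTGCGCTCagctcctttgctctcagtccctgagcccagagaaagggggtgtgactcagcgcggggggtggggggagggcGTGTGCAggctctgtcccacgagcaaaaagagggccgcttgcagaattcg
Mt1: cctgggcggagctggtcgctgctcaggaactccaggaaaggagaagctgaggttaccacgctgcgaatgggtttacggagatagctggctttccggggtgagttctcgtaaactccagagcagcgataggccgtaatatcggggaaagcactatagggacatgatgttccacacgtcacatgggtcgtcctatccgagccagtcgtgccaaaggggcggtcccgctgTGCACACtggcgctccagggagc
Of the 554 transcript stretches of 50 bases of Mt2, 45.8% are shared with Gm45774 on the other strand, a gene not analysed here, so that Mt2 counts may hold its reads where the counting did not use strand. None of those of Mt1 are shared with another gene.

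Both metallothionein genes were highest on day 2 and had lost most of this level by day 4. Mt1 in WT was at 56.6 and 56.8 CPM in undifferentiated cells, 768 and 1391 on day 2, 218 and 554 on day 4 and 70.2 and 239 on day 6. For W330R, Mt1 was at 64.5 and 63.8 CPM in undifferentiated cells, 469.9 and 713 on day 2, 169 and 239 on day 4 and 108 and 149.8 on day 6. For the double mutant, Mt1 was at 495 and 1729 CPM on day 2, 161 and 368 on day 4 and 98.4 and 159 on day 6. Replicate 2 lay above replicate 1 in each of the 9 conditions of days 2 to 6, by up to 3.49-fold on day 2 of the double mutant. Mt1 rose on day 2 (log2 fold change 3.73 ± 0.50, SE, edgeR adjusted p = 1.74e-05) and fell to day 4 (log2 fold change -1.70 ± 0.38, SE, edgeR adjusted p = 0.00278), and the further change to day 6 did not pass the test (log2 fold change -1.01 ± 0.37, SE, edgeR adjusted p = 0.137). That last change passed with a replicate block or without replicate 2 of WT on day 6 (-1.37). Against undifferentiated cells Mt1 was higher on day 6 (log2 fold change 1.23 ± 0.46, SE, edgeR adjusted p = 0.0322). The call was lost without replicate 2 of WT on day 6 (0.66, adjusted p = 0.226), without replicate 2 of W330R on day 6 (1.10) and without any of the 4 undifferentiated libraries (1.23 to 1.24, adjusted p at least 0.0772).

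Mt2 in WT cells was at 48.3 and 46.3 CPM in undifferentiated cells, 501 and 729.7 on day 2, 95.2 and 215 on day 4 and 20.8 and 78 on day 6. Mt2 in W330R cells was at 45.2 and 44.3 CPM in undifferentiated cells, 242 and 373 on day 2, 69.3 and 106 on day 4 and 34.8 and 67.5 on day 6. Mt2 in double mutant cells was at 294 and 1170.4 CPM on day 2, 66 and 183 on day 4 and 28.6 and 50.5 on day 6. Here too replicate 2 was the higher in all 9 conditions, and the libraries of day 6 overlapped the undifferentiated ones. Mt2 rose on day 2 (log2 fold change 3.24 ± 0.53, SE, edgeR adjusted p = 0.000102), fell to day 4 (log2 fold change -2.12 ± 0.41, SE, edgeR adjusted p = 0.00112), and did not pass the test from day 4 to day 6 (log2 fold change -1.37 ± 0.40, SE, edgeR adjusted p = 0.0693). This last step passed with DESeq2, without the low-count filter, with a replicate block and without replicate 2 of WT on day 6 (-1.76). On day 6 Mt2 did not differ from undifferentiated cells beyond its error (log2 fold change 0.13 ± 0.49, SE, edgeR adjusted p = 0.842), and its sign turned without replicate 2 of WT (-0.50) or of W330R (-0.15) on day 6.

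Dusp1 encodes a phosphatase that switches off MAP kinases and is induced by glucocorticoids, cAMP and serum. It was chosen with the induced genes, yet it was not called on day 2. Dusp1 in WT cells was at 54.1 and 55.7 CPM in undifferentiated cells, 53.4 and 44.4 on day 2, 25.9 and 36.2 on day 4 and 76.7 and 43.5 on day 6. In cells with W330R, Dusp1 was at 67.4 and 73.7 CPM in undifferentiated cells, 51.8 and 44.9 on day 2, 37.3 and 34.5 on day 4 and 62.9 and 65.7 on day 6. In cells with the double mutant, Dusp1 was at 59.9 and 94.4 CPM on day 2, 41.7 and 29.3 on day 4 and 139.8 and 45 on day 6. All day 2 libraries of WT and W330R (44.4 to 53.4 CPM) lay below all undifferentiated libraries (54.1 to 73.7 CPM). Those of the double mutant, which had no undifferentiated libraries, did not. Day 4 held the lowest values in each genotype, and day 6 had a value of 139.8 CPM in replicate 1 of the double mutant, above all others. The change to day 2 did not pass the test (log2 fold change -0.36 ± 0.28, SE, edgeR adjusted p = 0.284), although it passed as a decrease in a fit of only the conditions compared (adjusted p = 0.00903). Dusp1 fell to day 4 (log2 fold change -0.73 ± 0.23, SE, edgeR adjusted p = 0.0213) and rose to day 6 (log2 fold change 1.06 ± 0.23, SE, edgeR adjusted p = 0.0186). The fall to day 4 was lost (adjusted p 0.0556 to 0.0703) without replicate 1 of WT or replicate 2 of W330R on day 4, or without replicate 2 of the double mutant on day 2 or on day 4. The rise to day 6 was lost (0.0550 to 0.0700) without replicate 1 of WT on day 6, either W330R library of day 4 or replicate 2 of the double mutant on day 4, and also in fits of only the conditions compared (0.0706) or only days 2 to 6 (0.0507).

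The Dusp1 promoter is shown because it held the full cAMP response element TGACGTCA, found in 1.55% of windows, at 143 to 136 bases before the start (chr17:26508473-26508722, minus strand, element in capitals). This element contains the shorter form TGACG on both strands, which stood in 17.8% of windows. Windows of Mt1, Sgk1, Tsc22d3 and Per1 held the shorter form too. The Dusp1 window held it again at 191 to 187 bases before the start, left in lower case.
Dusp1: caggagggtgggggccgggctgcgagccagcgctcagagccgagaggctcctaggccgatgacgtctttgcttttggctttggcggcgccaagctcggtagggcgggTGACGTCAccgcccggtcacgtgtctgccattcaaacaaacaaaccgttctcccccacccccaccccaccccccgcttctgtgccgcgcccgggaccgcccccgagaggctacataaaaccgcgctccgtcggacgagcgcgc

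The 7 genes that rose on day 2 are described here by how much of that level was left later. On day 4, Fkbp5 was at 95.4% of its day 2 mean in WT, 52% in W330R and 56.2% in the double mutant, and on day 6 at 11.3%, 4.53% and 8.84%. Sgk1 was at 90.5%, 103% and 85.1% on day 4 and at 17.1%, 28.8% and 39.6% on day 6, in the same order of genotypes. For Tsc22d3 the values were 76.2%, 52.5% and 61.8% on day 4 and 32.4%, 15.5% and 24.2% on day 6. Mt1 was at 35.8%, 34.5% and 23.8% on day 4 and at 14.3%, 21.8% and 11.6% on day 6. Mt2 was already at 25.2%, 28.5% and 17% on day 4, and at 8.02%, 16.6% and 5.40% on day 6. Per1 and Zbtb16 were at or above their day 2 mean on day 4 in all 3 genotypes, at 114% to 134% and 109% to 119%. On day 6 Per1 still stood at 67% to 71.1% of day 2, whereas Zbtb16 stood at 23% to 35.9%. Thus Mt1 and Mt2 were called lower from day 2 to day 4, and Fkbp5, Tsc22d3, Per1, Sgk1 and Zbtb16 from day 4 to day 6, and this difference between genes was not tested. The removal of dexamethasone, isobutylmethylxanthine and troglitazone and the passing of time cannot be told apart in these steps.

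**Figure D3:**
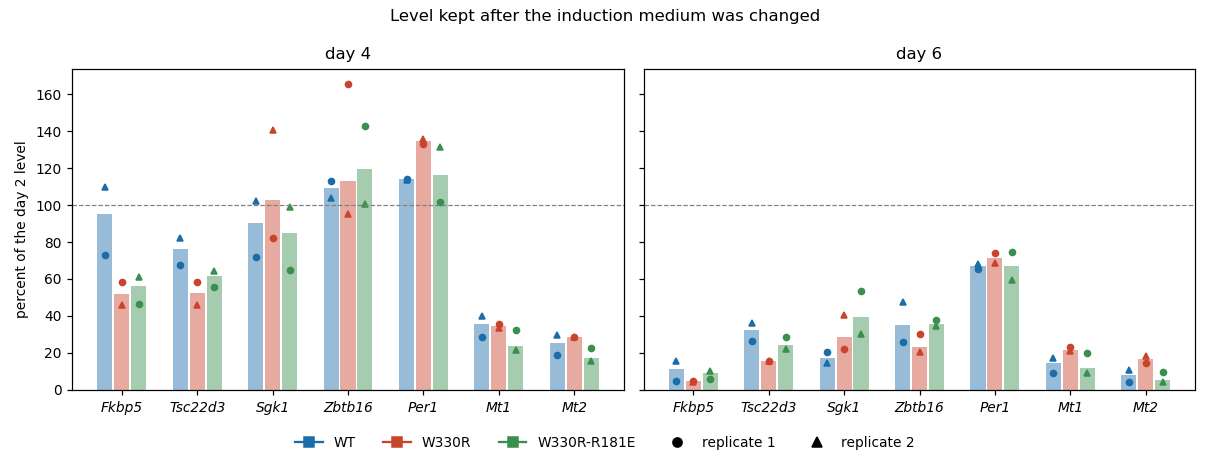
Mean CPM on day 4 (left) and day 6 (right) as a percent of the day 2 mean of the same genotype (bars), with points for each replicate against the day 2 library of the same number. The dashed line marks 100% of day 2. Mt1 and Mt2 are at 17% to 35.8% on day 4, while Fkbp5 is at 52.0% to 95.4% on day 4 and 4.53% to 11.3% on day 6.

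Single genotypes had 2 libraries a stage to compare. At the step to day 2, 15 of 20 tests of members within WT and within W330R passed, where 50.9% and 48.2% of all genes were called. At the step to day 4, 1 of 30 passed, a fall of Mt2 in the double mutant (log2 fold change -2.56 ± 0.72, SE, edgeR adjusted p = 0.038), where 10.8%, 12.4% and 10.7% of all genes were called in WT, W330R and the double mutant. This call was lost without replicate 2 of the double mutant on day 2 (-1.24), without either of its libraries of day 4 (-2.0 and -3.46) and in fits of only the conditions compared or only days 2 to 6. At the step to day 6, 2 of 30 passed, Per1 (log2 fold change -0.77 ± 0.13, SE, edgeR adjusted p = 0.0271) and Sgk1 (log2 fold change -2.41 ± 0.42, SE, edgeR adjusted p = 0.0266) in WT, where 0.324%, 0% and 0.0207% of all genes were called. The Per1 call was lost without any of the 4 libraries of this step (-0.68 to -0.82), and the Sgk1 call without replicate 2 of WT on day 4 (-1.68) or either WT library of day 6 (-2.32 and -2.46). Both were also lost in fits of only the conditions compared (adjusted p = 0.453 for Per1 and 0.361 for Sgk1). The same held for only days 2 to 6 (0.0816 and 0.0841), and for Per1 without the low-count filter (0.0544). Between genotypes, none of 40 differences in the steps to day 2 and day 4 passed in edgeR, 1 had an unadjusted p under 0.05 and 1 passed with DESeq2, where 1.87% of all genes were called for the step to day 2 and 0% for the steps to day 4. Differences between genotypes in the step from day 4 to day 6 were not tested. For Fkbp5 the difference of W330R and WT from day 2 to day 4 had an interval of -2.87 to 1.11.

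Over days 2 to 6, 4 members were lower in W330R than in WT (Zbtb16, Sgk1, Per1 and Hsd11b1) and 6 did not pass the test, where 29.0% of all genes were called, 14.3% higher and 14.8% lower. The median log2 fold change of the members was -0.65, beside 0.02 for all genes tested. Zbtb16 had its lowest, median and highest CPM over the 6 libraries of days 2 to 6 at 4.88, 13.5 and 21.1 in WT, 1.21, 5.25 and 11.8 in W330R and 3.16, 9.39 and 12 in the double mutant. It was lower in W330R than in WT (log2 fold change -1.20 ± 0.28, SE, edgeR adjusted p = 0.00522) and on each of the 3 days both W330R libraries lay below both WT libraries. Sgk1 stood at 46.9, 195 and 365 CPM in WT, 38.4, 113 and 172 in W330R and 53.4, 98.1 and 176 in the double mutant, and was lower in W330R (log2 fold change -0.82 ± 0.23, SE, edgeR adjusted p = 0.0163). That call was lost without replicate 2 of WT on day 2 (-0.70) or day 4 (-0.58), or without replicate 2 of W330R on day 2 (-0.69). Per1 was lower by a small margin (log2 fold change -0.29 ± 0.08, SE, edgeR adjusted p = 0.0132), a call lost without replicate 2 of WT on day 4 (-0.27) or day 6 (-0.26), without replicate 1 of W330R on day 4 (-0.25), or without the low-count filter (adjusted p = 0.0623). Fkbp5 was lower on average but missed the threshold (log2 fold change -1.05 ± 0.38, SE, edgeR adjusted p = 0.0537), and passed with DESeq2, without the low-count filter and with a replicate block (smallest adjusted p = 0.0149), and when replicate 1 of WT on day 4 or day 6 was left out (-1.20 and -1.29). The receptor gene itself behaved likewise (log2 fold change -0.46 ± 0.18, SE, edgeR adjusted p = 0.0702). Of the 10 mesenchymal markers, 5 were higher in W330R than in WT (median 0.74). Of the 9 adipocyte markers tested, 8 were lower in W330R than in WT, with a median log2 fold change of -1.24, and their part in these differences was not tested.

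Hsd11b1 was called both in W330R against WT and in the double mutant against W330R. Its lowest, median and highest CPM over days 2 to 6 were 20.6, 36.1 and 138 in WT, 10.5, 18.1 and 28.5 in W330R and 29.7, 41.2 and 56.5 in the double mutant. It was lower in W330R than in WT (log2 fold change -1.29 ± 0.26, SE, edgeR adjusted p = 0.00247) and the double mutant lay above W330R (log2 fold change 1.19 ± 0.26, SE, edgeR adjusted p = 0.00664), in the latter case with no overlap between the groups. On day 6 alone W330R was also below WT (log2 fold change -2.08 ± 0.46, SE, edgeR adjusted p = 0.0153), which was the 1 of 40 single-stage tests of members that passed, where 1.75%, 3.06%, 6.14% and 7.54% of all genes were called from undifferentiated cells to day 6. That value rested on replicate 2 of WT at 138 CPM and became -0.97 (adjusted p = 0.344) without it. The adipocyte marker sum of that library was 9807 CPM, against 5207 CPM in replicate 1 and 1563 and 1762 CPM in W330R on day 6. The part of this sum in the Hsd11b1 difference was not tested. The call was also lost without replicate 1 (-1.62) or 2 (-2.63) of W330R, and in a fit of only the conditions compared (-2.08, adjusted p = 0.152). In undifferentiated cells the order was the opposite, with 79.5 and 75.5 CPM in W330R against 31.7 and 32.0 CPM in WT, a difference that did not pass in the fit of all libraries (log2 fold change 1.28 ± 0.45, SE, edgeR adjusted p = 0.212) and passed in a fit of only these 4 libraries (adjusted p = 3.8e-06). That fit of 4 libraries, whose replicates were far closer than those of days 2 to 6, called 4194 of all genes, against 254 in the fit of all libraries.

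In the double mutant against W330R, 2 members were higher over days 2 to 6, Hsd11b1 and Per1 (log2 fold change 0.34 ± 0.08, SE, edgeR adjusted p = 0.00886), where 17.2% of all genes were called, 7.87% higher and 9.36% lower. In the same comparison 5 of 9 adipocyte markers were higher and 1 lower (median 0.63) and 4 of 10 mesenchymal markers were lower (median -0.58), and their part in the result was not tested. On single days none of 30 tests passed in edgeR, 4 had an unadjusted p under 0.05, and 2 passed with DESeq2. On days 2, 4 and 6 edgeR called 387, 278 and 218 of all genes (2.67%, 1.91% and 1.50%), and DESeq2 called 902, 690 and 674. Against WT no member was called in edgeR and 1 in DESeq2, and 5 members had an unadjusted p under 0.05 in edgeR. There edgeR called 1390 of all genes (9.57%) and DESeq2 called 2272. On single days none of 30 tests against WT passed in edgeR or DESeq2, and 3 had an unadjusted p under 0.05 in edgeR. On days 2, 4 and 6 edgeR called 0, 0 and 127 of all genes (0%, 0% and 0.875%), and DESeq2 called 110, 160 and 602. The smallest adjusted p of the mean belonged to Nr3c1 (log2 fold change -0.60 ± 0.18, SE, edgeR adjusted p = 0.0522), which passed with DESeq2 (adjusted p = 0.0134), without the low-count filter (0.0205) and with a replicate block (0.0193). It also passed when replicate 1 of WT on any of the 3 days or replicate 2 of the double mutant on any of the 3 days was left out (-0.74 to -0.43 over all libraries left out). Per1 had an interval of -0.12 to 0.22 and Hsd11b1 of -0.65 to 0.45 for the double mutant against WT.

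**Figure D4:**
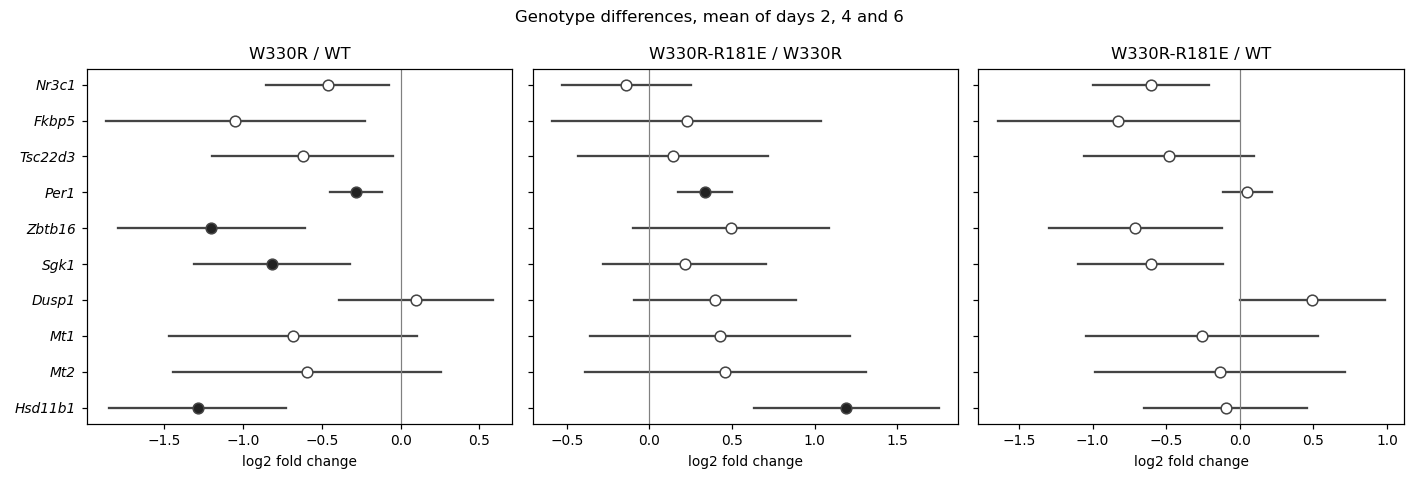
Log2 fold change of each member between genotypes over days 2 to 6, with its 95% confidence interval (line). Filled points passed an adjusted p under 0.05 and open points did not. Hsd11b1 is lower in W330R than in WT (-1.29), and the double mutant lies above W330R (1.19), and no member passed for the double mutant against WT.

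A wider list, also chosen with earlier results of these data known, held 24 other genes known to be induced by glucocorticoids. Each of the 24 was called on day 2, 22 higher and 2 lower (Anxa1 and Gadd45a), with a median log2 fold change of 1.66, where 33.5% of all genes were called higher and 29.4% lower. Glul, glutamine synthetase, rose from 14.1–21.1 CPM to 734–2731 CPM (log2 fold change 6.35 ± 0.52, SE). Lcn2, a siderophore-binding lipocalin, was at 0–0.176 CPM before and 56.1–1793 CPM on day 2. Klf15, a factor of adipocyte and amino acid metabolism, was at 0 in all 4 undifferentiated libraries and at 0 to 4.91 CPM on day 2. From day 2 to day 4, 12 of the 24 fell and 3 rose, with a median of -0.33, where 20.6% of all genes were called higher and 18.5% lower. Among these were Pdk4, an inhibitor of pyruvate dehydrogenase, which fell from 277–582 to 109–190.0 CPM, and Angptl4, an inhibitor of lipoprotein lipase, which fell from 29–151 to 8.77–37.8 CPM. Both are also known targets of the PPAR receptors that troglitazone activates. Sult1a1, a sulfotransferase, rose again from 14.9–58.1 to 77.8–245 CPM.

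Genes of inflammation that glucocorticoids are known to lower were called lower or not called on day 2. Of 18 such genes 11 were tested, and 6 fell on day 2 while the other 5 did not pass the test, with a median of -1.41, where 29.4% of all genes were called lower. Ptgs2, the inducible cyclooxygenase, went from 86.1–171 CPM to 1.44–11.5 CPM. The chemokines Ccl2 and Ccl7 fell from 11.1–12.9 to 0.151–2.82 CPM and from 5.32–8.89 to 0.0755–0.571 CPM, and the cytokine gene Lif fell from 1.39–6.06 to 0.152–0.347 CPM. To day 4, Ccl2 (log2 fold change 2.50 ± 0.81, SE) and Ccl7 (2.56 ± 0.79) were among 4 genes that rose again (beside 20.6% of all genes), whereas Ccl5 was among 2 that fell, at 0.246–1.72 CPM on day 2 and 0–0.318 CPM on day 4. Icam1, an adhesion molecule also among the 4, was under 1 CPM in every library.

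Of the 14 genes tested that respond early to cAMP, 5 were called higher and 2 lower on day 2 (median 0.24), a share called below the 63.0% of all genes. To day 4, 6 fell and 8 did not pass the test (median -0.55), where 39.1% of all genes were called and 18.5% were called lower. The phosphodiesterase genes Pde4b and Pde4d, which break down cAMP, were at 3.59–8.15 and 29–34.7 CPM before induction, at 38.5–137 and 61.4–86.8 CPM on day 2, and at 16.1–39 and 35.7–52.8 CPM on day 4. The kinase gene Sik1 fell to day 4 from 113–179 to 65.7–98.8 CPM and the orphan receptor gene Nr4a3 from 1.72–11.5 to 1.67–3.52 CPM. On day 2 the genes that fell were Bdnf, a growth factor, from 97.9–164 to 10.5–37.2 CPM, and Egr1, an immediate early factor, from 275–379 to 24.7–168 CPM.

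Of the 16 clock genes tested beside Per1, 7 fell, 2 rose and 7 did not pass the test on day 2, with a median of -0.45, where 33.5% of all genes were called higher and 29.4% lower. Nr1d2, a nuclear receptor of the clock, fell from 83.1–102 to 22.4–32.4 CPM, Ciart from 5.96–9.42 to 1.56–3.54 CPM and Per3 from 39.3–62.1 to 14.8–25.2 CPM. The 2 that rose were Per2, which like Per1 is a target of the glucocorticoid receptor, and Hlf, at 0–0.0445 CPM before and 0.149–1.03 CPM on day 2. To day 4, 6 rose and 10 did not pass the test, where 20.6% of all genes were called higher. Among the 6 were Dbp from 4.17–13.3 to 8.08–30.6 CPM, Bhlhe41 from 8.23–12.9 to 17.8–24 CPM and Npas2 from 0.0535–1.23 to 0.445–3.68 CPM. In W330R, 9 of the 16 were lower than in WT over days 2 to 6, as Per1 was, and 7 did not pass the test, where 14.8% of all genes were called lower. Npas2 ranged over 0.453–3.68 CPM in WT and 0.0535–0.482 CPM in W330R, and Hlf over 0.170–1.94 and 0.0821–0.428 CPM, beside 0.0232–0.164 CPM in the double mutant.

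Of 10 genes of the response to metals 7 were tested, and 6 rose and 1 fell on day 2 with a median of 1.32, where 33.5% of all genes were called higher and 29.4% lower. Those that rose included the zinc exporter gene Slc30a1 (6.86–8.67 to 14.6–28.4 CPM), the importer gene Slc39a14 (86.6–109.5 to 118–602 CPM) and Gclc, an enzyme of glutathione synthesis (49.2–65.8 to 95.7–242 CPM). Slc39a8, another importer, was at 0–0.264 CPM before and 0.227–1.44 CPM on day 2. To day 4, 4 fell (beside 18.5% of all genes), among them Gclc (log2 fold change -1.05 ± 0.15, SE), Hmox1 (-0.44 ± 0.13) and Mtf1 (-0.35 ± 0.08), the factor that binds metal response elements, and Slc39a8 rose (1.28 ± 0.28).

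The chaperones and cofactors of the receptor and the enzymes that handle its ligand had 5 members called higher and 7 lower on day 2 of 21 tested, with a median of -0.05, a share called near the 63.0% of all genes. Bag1, a co-chaperone that binds the receptor, rose from 46.8–58.6 to 272–314 CPM. Nr3c2, the mineralocorticoid receptor, fell from 6.16–8.91 to 1.28–4.53 CPM, and Abcb1b, a pump that exports steroids, from 16.2–23.9 to 4.46–12.7 CPM. To day 4, Fkbp4, a co-chaperone that acts opposite to Fkbp5, fell from 152–245 to 116–143 CPM, and H6pd, which supplies the cofactor of the Hsd11b1 enzyme, rose from 42.3–101 to 75.4–108 CPM. Hsd11b2, the enzyme that inactivates glucocorticoid, was at 0.134–0.440 CPM before induction, 0.799–1.77 CPM on day 2 and 2.13–9.17 CPM on day 4. The pump gene Abcb1a was under 1 CPM in every library.

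**Figure D5:**
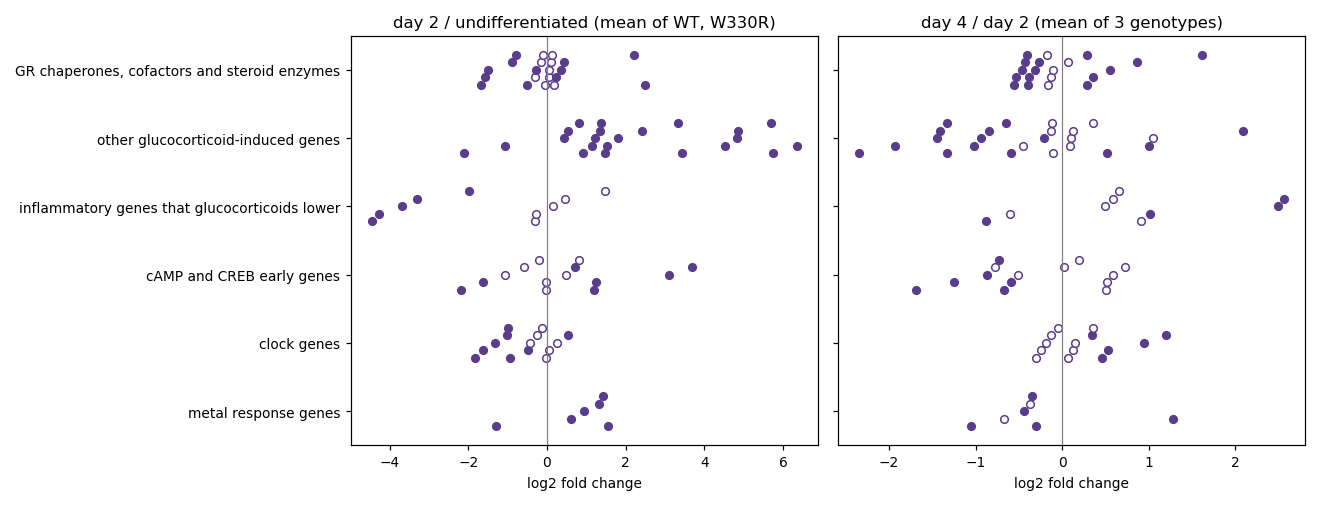
Log2 fold change of each gene of 6 lists from undifferentiated cells to day 2 (left) and from day 2 to day 4 (right). Filled points passed an adjusted p under 0.05 and open points did not. Genes with at most 3 counts in both libraries of a condition compared are not drawn. On the left most of the other glucocorticoid-induced genes lie above 0, and called inflammatory genes lie below it.

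The genes whose mean log2 CPM over the 11 conditions was most like that of Fkbp5, among 11155 genes, were Ccdc71l (Pearson's r = 0.992), 2610020H08Rik (0.981) and Hsd17b10 (0.976). For Zbtb16 they were Per1 (0.988), Mc5r (0.987) and Eaf2 (0.982), so that of these 11155 genes the closest was another member. No other member was among the genes most like Fkbp5, Tsc22d3 or Mt2. For Tsc22d3 they were Tob2 (0.984), Pgd (0.974) and Nampt (0.971). For Mt2 they were Huwe1 (0.980), Akirin1 (0.979) and Uimc1 (0.978). These likenesses are descriptions across 11 conditions that share libraries, depth and the same large step at induction.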

How the data were processed

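Gene expression was measured by RNA-seq in 22 libraries. The deposited table holds estimated counts per gene, which the authors made from their reads, and the submitters' notes name kallisto, DESeq2 1.40 and GRCm39 without giving the role of each. Whether counting used strand is not given in the sources used here. Estimated counts were rounded to whole numbers. Genes with too few counts were left out with edgeR's filterByExpr (minimum count 10, minimum total 15), libraries were scaled by TMM, and all 11 conditions were fitted together with edgeR's quasi-likelihood test (edgeR 4.0.16, limma 3.58.1, R 4.3.3). P-values are two-sided and were adjusted by Benjamini-Hochberg over 14520 genes, with 0.05 as the threshold. Library totals of 8859501 to 47453908 counts set the counting precision, and confidence intervals are at 95%.

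The procedure was tested on simulated data with known changes. Alternatives were DESeq2 1.42.0, RLE scaling, no filter, a fit of only the conditions compared, a replicate block, leaving out each library, and, chosen after seeing the data, a fit of only days 2 to 6. The 10 members and the gene lists were chosen with earlier results of these data known. From each list the text names up to 4 called genes with the largest change at the steps to days 2 and 4, from all lists together up to 2 in each comparison of genotypes, a few marker genes, and for 4 members the 3 genes most like them. Log2 CPM for likeness used a prior count of 2 and genes with a mean of at least 1. Lamb3 and the list members named only as higher or lower were chosen after their values were seen. Gene spans are from GENCODE on GRCm38, and promoters are RefSeq windows on GRCm38.p6. Both builds differ from the submitters' GRCm39, and no coordinate was converted.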

Additional observations from a re-analysis of the deposited data

Results flagged for a closer look

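The libraries of WT and W330R differed in opposite directions in Nr3c1 at induction. Its mean level on day 2 minus that of undifferentiated cells was 33.4 CPM in WT, where both libraries of day 2 lay above both undifferentiated ones, and -28.5 CPM in W330R, where both lay below. The difference between these changes did not pass the test (log2 fold change -0.62 ± 0.44, SE, edgeR adjusted p = 0.587).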

How the results depend on the processing

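With 2 libraries a condition, tests within a genotype or a day depended on the choice of test. Tests of members that passed from day 2 to day 4 within genotypes numbered 1, and 5 with DESeq2, 4 without the low-count filter, 3 in a fit of only the conditions compared and 0 with only days 2 to 6. Calls over all genes in WT, W330R and the double mutant were 1565, 1802 and 1555 in the main fit. With DESeq2 they were 2216, 2554 and 2283, and without the filter 1336, 1562 and 1289. They were 7, 1411 and 0 with only the conditions compared and 1013, 1183 and 857 with only days 2 to 6. From day 4 to day 6 within genotypes, tests of members that passed numbered 2, and 10 with DESeq2, 7 without the filter and 0 with only days 2 to 6. Over all genes, in the same order of genotypes, calls were 47, 0 and 3, and 275, 112 and 128 with DESeq2. They were 126, 42 and 57 without the filter and 10, 0 and 0 with only days 2 to 6. Differences of members between genotypes in a step that passed numbered 0, and 1 with DESeq2, without the filter and with only the conditions compared. For the step to day 2, 271 of all genes were called in the main fit, and 672, 349 and 338 under these alternatives. For the steps to day 4, 0 were called in the main fit and with only the conditions compared. DESeq2 called 17, 13 and 4 there, and the fit without the filter 0, 3 and 0. For the double mutant against W330R on single days, tests of members that passed numbered 0, and 2 with DESeq2 and 1 without the filter. Over all genes, calls on days 2, 4 and 6 were 387, 278 and 218, and 902, 690 and 674 with DESeq2. Without the filter they were 574, 390 and 268. For W330R against WT at single stages, tests of members that passed numbered 1, and 2 with DESeq2, 2 without the filter and 5 with only the conditions compared. Over all genes, calls from undifferentiated cells to day 6 were 254, 445, 891 and 1095, and 528, 1081, 1700 and 1754 with DESeq2. They were 257, 564, 1000 and 1095 without the filter and 4194, 0, 0 and 57 with only the conditions compared. For the double mutant against WT over days 2 to 6, members called numbered 0, and 1 with DESeq2 and without the filter. Over all genes, calls were 1390, and 2272 with DESeq2 and 1366 without the filter. The metal response genes called from day 2 to day 4 numbered 5 (beside 5677 of all genes), and 3 with only the conditions compared (beside 4445). The cause of these differences was not tested. For fits that leave out a library, given below, no calls over all genes are given beside those of members.

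The labels do not say that a replicate number marks a shared batch, and not every pair of conditions correlated above 0.1, so the numbers were not used as a pairing, although libraries of days 2 to 6 with the same number shared variation. Deviations of same-numbered libraries correlated at a mean of 0.215 over 36 pairs of conditions of days 2 to 6 (27 above 0.1) and -0.0116 over 19 pairs with undifferentiated cells (0 above 0.1). With the replicate number as a block, 7 tests of members passed from day 2 to day 4 and 5 from day 4 to day 6 within genotypes, 1 difference in a step, 1 for the double mutant against W330R on single days, 2 for W330R against WT at single stages and 1 for the double mutant against WT over days 2 to 6. Over all genes the block gave 2307, 2729 and 2428 calls from day 2 to day 4 in WT, W330R and the double mutant. From day 4 to day 6 it gave 131, 27 and 10. Differences in the step to day 2 were 510, and in the steps to day 4 they were 0, 1 and 0. The double mutant against W330R gave 749, 542 and 498 calls on days 2, 4 and 6, and against WT 2338 over these days. W330R against WT gave 392, 909, 1848 and 1757 from undifferentiated cells to day 6. The Mt2 change from undifferentiated cells to day 6 turned to -0.0790 under the block.

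Leaving out each library gave 0 to 2 passing tests for W330R against WT at single stages (0 without replicate 2 of WT or either replicate of W330R on day 6), 0 to 2 from day 2 to day 4 within genotypes (0 without replicate 1 of W330R on day 4, 2 without replicate 1 of the double mutant on day 2), and 0 to 4 from day 4 to day 6 (0 without replicate 2 of WT on day 4, 4 without replicate 2 of the double mutant on day 6). For the double mutant against WT it gave 0 to 1 on single days (1 without replicate 1 of WT on day 6) and 0 to 2 over days 2 to 6 (2 without replicate 1 of WT on day 4 or replicate 2 of the double mutant on day 4 or day 6). For W330R against WT over days 2 to 6 it gave 2 to 7 members (2 without replicate 2 of WT on day 4, 7 without replicate 1 of WT on day 6).

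Values close to 0 changed sign. The Nr3c1 change to day 2 was -0.0082 with DESeq2, -0.00812 with RLE scaling and -0.00974 with only the conditions compared. The Dusp1 change from undifferentiated cells to day 6 was 0.0298 without the filter and 0.0236 with only the conditions compared. Leaving out a library gave -0.0978 to 0.10 for Nr3c1 and, in WT, -0.64 to 0.0595 for Hsd11b1 to day 2, -0.00754 to 0.52 for Zbtb16 and -0.36 to 0.0537 for Sgk1 to day 4, and -0.12 to 0.20 for Nr3c1 from day 4 to day 6. From undifferentiated cells to day 6 it gave -0.0966 to 0.42 for Tsc22d3, -0.23 to 0.18 for Dusp1, -0.50 to 0.46 for Mt2 and -0.75 to 0.13 for Hsd11b1. Between genotypes it gave -0.0249 to 0.25 for Dusp1 in W330R against WT. For the double mutant against W330R it gave -0.13 to 0.43 for Fkbp5, -0.14 to 0.30 for Tsc22d3 and -0.0327 to 0.38 for Sgk1. For the double mutant against WT it gave -0.0184 to 0.11 for Per1, -0.64 to 0.12 for Mt1, -0.56 to 0.28 for Mt2 and -0.31 to 0.28 for Hsd11b1. Of all values of members under these alternatives, 1273 kept their direction and side of the threshold, 48 lost the call, 52 gained it and 43 changed sign.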
